A study of Mus musculus with 24 samples.

Results

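The sequence described here lay under the linker histone H1.0 and the heterochromatin mark H3K9me3 at the same time in mouse embryonic fibroblasts before reprogramming. It was found by intersecting, base by base, the 4 ground-state peak lists (2 libraries of H1.0 and 2 of H3K9me3) on chromosomes 1 to 19 and X. The intersection left 2551 intervals, and the 2237 of at least 200 bp, called members below, covered 2.00 Mb. All 16 peak lists merged into 535187 regions over 1754 Mb. Bases shared by all 4 lists made up 3.79% of the 53.6 Mb under both H1.0 lists and 3.24% of the 62.8 Mb under both H3K9me3 lists. Over the whole genome, both H3K9me3 lists covered 2.39% and both H1.0 lists covered 2.04%. Since the ground-state lists chose the members, ground-state values are given only as a description.

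The cells were an embryonic fibroblast line (iMGT-Myh6-eGFP-MEF) with doxycycline-inducible Mef2c, Gata4 and Tbx5, factors that together can convert fibroblasts towards heart muscle, and an eGFP reporter of Myh6. CUT&RUN, in which a nuclease tethered by an antibody cuts out the DNA around its target, mapped MEF2C after siJunb (n = 3), siH1f0 (n = 3) or siControl (n = 2). These cells and those for the siControl libraries of each mark (n = 2) all received 1 µg/mL doxycycline and were taken at day 1 of induction. The ground-state libraries (2 of H1.0 and 2 of H3K9me3) came from cells with neither siRNA nor induction, so the siRNA, the medium and the induced factors cannot be told apart in any day 1 value set beside the ground state. Knockdown and cell identity were not checked, because no expression data were used here.

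H1.0, encoded by H1f0, is a linker histone that binds nucleosomes where DNA enters and leaves them and accumulates in cells that have left the cell cycle. H3K9me3 is laid down by enzymes such as SETDB1 and SUV39H1, is read by HP1 proteins, and covers repeats, transposons and tandem gene arrays, among them clusters of KRAB zinc finger genes, imprinted control regions and silent genes of other lineages. MEF2C is a MADS-box transcription factor of muscle and heart, and JUNB is a subunit of the AP-1 factor.

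The share of gene starts in this sequence was close to its share of the genome, which was 0.0761%. Of 32619 RefSeq promoter windows (250 bases before to 50 after a gene's start, GRCm38.p6), 28 (0.0858%) shared at least 1 base with a member. Wholly inside a member lay 19 windows (0.0582%). Their median GC share was 48.7%, against 53.0% over all windows, and their median observed-to-expected CG ratio was 0.197, against 0.387. The 6 windows printed here were chosen after their values were seen: Plagl1 as the CG-rich imprinted start, Rex2 and Zfp985 from the zinc finger array on chromosome 4, Sp110 from the array on chromosome 1, and Gm7347 and Gm10220 as near-copies from chromosome 5. They run 5′ to 3′ along the gene, and capitals mark each CG.
Plagl1: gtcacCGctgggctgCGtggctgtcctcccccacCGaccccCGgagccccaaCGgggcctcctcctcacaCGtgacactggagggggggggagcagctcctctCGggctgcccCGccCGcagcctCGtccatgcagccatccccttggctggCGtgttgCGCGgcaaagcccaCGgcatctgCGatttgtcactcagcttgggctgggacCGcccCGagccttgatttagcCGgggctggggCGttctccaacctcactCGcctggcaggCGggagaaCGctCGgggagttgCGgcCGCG
Rex2: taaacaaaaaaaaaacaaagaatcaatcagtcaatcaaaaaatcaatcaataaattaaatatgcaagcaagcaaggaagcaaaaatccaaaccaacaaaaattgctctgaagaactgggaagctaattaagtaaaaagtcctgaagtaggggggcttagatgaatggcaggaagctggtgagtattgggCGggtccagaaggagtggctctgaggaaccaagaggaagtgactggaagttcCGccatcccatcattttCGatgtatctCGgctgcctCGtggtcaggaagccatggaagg
Zfp985: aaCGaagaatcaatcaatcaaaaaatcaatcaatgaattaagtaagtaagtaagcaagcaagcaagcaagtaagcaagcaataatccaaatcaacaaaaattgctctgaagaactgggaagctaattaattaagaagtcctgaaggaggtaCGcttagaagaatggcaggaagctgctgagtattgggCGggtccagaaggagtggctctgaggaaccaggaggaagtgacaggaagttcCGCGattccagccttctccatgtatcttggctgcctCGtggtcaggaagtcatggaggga
Sp110: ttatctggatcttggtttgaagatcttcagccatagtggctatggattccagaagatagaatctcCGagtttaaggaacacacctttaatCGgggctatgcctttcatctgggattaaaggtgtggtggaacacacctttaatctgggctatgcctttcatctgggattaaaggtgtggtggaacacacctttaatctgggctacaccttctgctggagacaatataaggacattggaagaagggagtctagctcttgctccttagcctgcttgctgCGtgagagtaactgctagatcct
Gm7347: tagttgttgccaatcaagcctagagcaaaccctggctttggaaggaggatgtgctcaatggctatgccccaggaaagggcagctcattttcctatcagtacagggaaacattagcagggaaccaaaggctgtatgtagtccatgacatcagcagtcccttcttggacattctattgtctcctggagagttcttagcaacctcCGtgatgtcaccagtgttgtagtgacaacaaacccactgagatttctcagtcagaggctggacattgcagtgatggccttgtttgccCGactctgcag
Gm10220: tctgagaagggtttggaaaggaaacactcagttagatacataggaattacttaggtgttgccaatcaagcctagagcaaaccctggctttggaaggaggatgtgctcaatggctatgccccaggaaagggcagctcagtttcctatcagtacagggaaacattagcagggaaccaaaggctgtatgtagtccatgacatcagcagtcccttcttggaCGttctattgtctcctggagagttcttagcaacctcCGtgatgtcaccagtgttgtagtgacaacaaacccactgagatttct

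The Plagl1 window is chr10:13090582-13090881 on the plus strand, with 26 CG and a GC share of 70.7%. Plagl1 encodes an imprinted zinc finger protein that restrains growth, and its start shares a member with that of the imprinted noncoding RNA Hymai. The Rex2 window (chr4:147021600-147021899, plus strand) has 5 CG and the Zfp985 window (chr4:147553027-147553326, plus strand) has 6. They matched at 254 of 295 aligned bases (86.1%). The Sp110 window (chr1:85603842-85604141, minus strand) has 3 CG. For Rex2 and Sp110 the start in the promoter table lies inside the annotated gene span. The windows of Gm7347 (chr5:26058485-26058784, minus strand) and Gm10220 (chr5:26121376-26121675, minus strand) have 2 CG each and matched at 246 of 249 aligned bases (98.8%). Reads from such copies can align to more than 1 place, and the way they were assigned is not given. Values in tandem families are therefore uncertain as to the copy they belong to.

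Motif letters were searched on both strands of these windows. TGCCGC, the core bound by the imprinting protein ZFP57, occurred in 2 of the 19 windows, which were the overlapping windows of Plagl1 and Hymai, and in 11.7% of all windows. The AP-1 letters TGANTCA occurred in 1 of 19 (5.26%) and in 7.85% of all windows. The MEF2 core, CTA and TAG with 4 bases of any kind between them, occurred in 0 of 19 and in 3.71% of all windows.

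Members were short and uneven along the genome. Their length had a median of 799 bp, with quartiles of 553 and 1069 bp, a maximum of 10453 bp and 88 members of 2 kb or longer. The 5 members nearest the threshold measured 201, 201, 202, 203 and 205 bp, and the 5 intervals just short of it measured 195 to 198 bp. Chromosome 1 held 308 members, chromosome 4 held 274 and chromosome 10 held 206, while chromosome 19 held 14. There were 923 members with no other within 100 kb. At the other extreme, 573 members (25.6%, with 32.3% of the bases) lay in 21 runs of at least 10 members spaced under 100 kb, which joined into 14 clusters. The 3 largest clusters held 387 members (17.3%). A gene body overlapped 967 members (43.2%), and a protein-coding one overlapped 645 (28.8%). Exons and introns were not told apart.

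Gene bodies with a member numbered 619 of 49550, and the 1.25% of all genes is the background for the families. Among protein-coding genes the count was 379 of 21627 (1.75%). Zinc finger genes, many of which encode KRAB repressors of transposons, had a member in 30 of 448 (6.70%). Their overlaps of a gene with a member numbered 131, where a member in overlapping genes counts once for each gene. The PML-body genes Sp100, Sp110 and Sp140, a list added after they were seen, had a member in 3 of 3. Major urinary protein genes, which encode secreted pheromone carriers, had 2 of 22 (Mup5 and Mup18). Cytochrome P450 genes had 4 of 134 (2.99%), including the liver enzymes Cyp3a41b and Cyp3a41a. Immunoglobulin and T cell receptor segments had 12 of 646 (1.86%), all 12 of them variable segments of the heavy chain (Ighv). The clustered protocadherins had 7 of 58, but these are overlapping alpha-cluster genes on chromosome 18 that share the same 2 members. Of protein-coding genes of 800 kb or longer, 27 of 98 (27.6%) held a member, and members covered 0.0399% of their summed length, against 0.0631% for all protein-coding genes.

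The remaining families and lists are given as counts. Olfactory receptor genes had 3 of 1428 (Olfr785, Olfr1033 and the pseudogene Olfr1544-ps1), and vomeronasal receptor genes had 0 of 233 of type 1 and 4 of 126 of type 2 (3.17%). Counts were 0 of 43 for Hox genes, 0 of 67 for replication-dependent histones, 0 of 83 for defensins, 0 of 69 for serpins and 0 of 55 for keratins. Lists this short would hold about 1 gene or fewer at the share of all genes, so their counts cannot be read as a lack or an excess, and the same holds for the cell identity lists. Sarcomere genes had 1 of 30 (Nebl, a nebulin relative of cardiac thin filaments), calcium handling genes 1 of 16 (the sodium-calcium exchanger Slc8a1), and energy metabolism genes 1 of 14 (the nuclear receptor Esrrg). Fibroblast and matrix genes had 1 of 27 (the collagen receptor Ddr2) and endothelial genes 1 of 8 (the transcription factor Erg). Cardiac transcription factors (0 of 21), AP-1 genes (0 of 13), linker histones (0 of 9), cell cycle genes (0 of 16) and housekeeping genes (0 of 15) had none, as had the smooth muscle, skeletal muscle, neuronal, hepatocyte and blood lists.

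**Figure D1:**
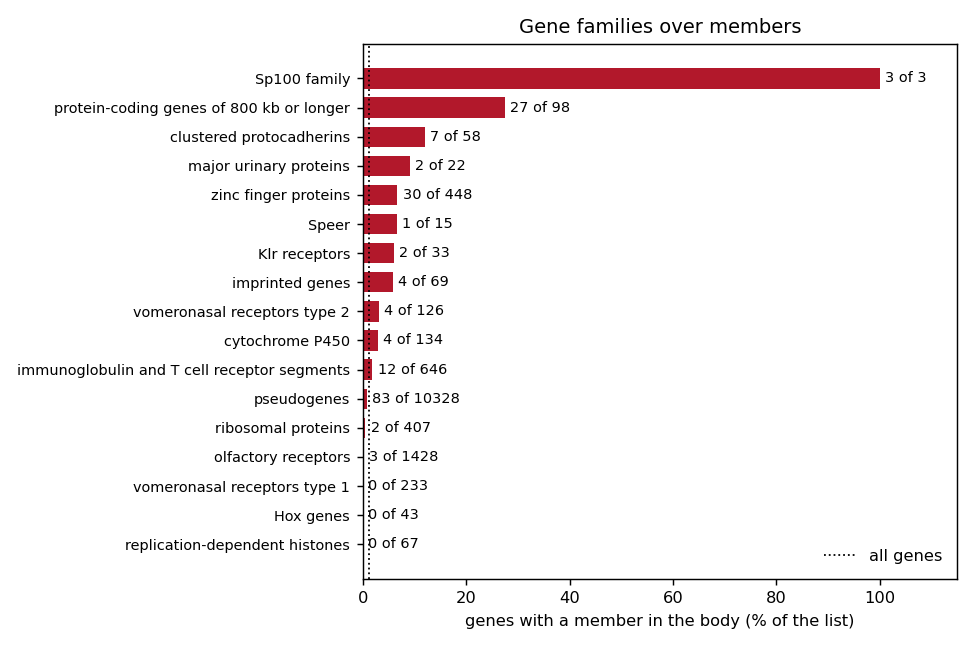
Percentage of genes in each family whose body shares at least 1 bp with a member, with the counts beside the bars; the dotted line marks all genes (1.25%). Of the 17 groups drawn, the Sp100 family (3 of 3) and very long genes (27 of 98) have the longest bars, and olfactory receptors (3 of 1428) and Hox genes (0 of 43) lie below the line.

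Of the 15 protein-coding genes with most bases under members, 8 lay in the zinc finger array of chromosome 4, 6 in the Sp100-family array of chromosome 1, and the remaining gene was Sdk1. In the chromosome 1 array, Gm38510 held 32 members with 35694 bp, Gm7592 held 30 with 33620 bp, and A530032D15Rik, with 7 members, was covered over 78.3% of its body. Sp140 held 10 members with 15328 bp and Sp110 held 7 with 10449 bp. Sp140 and Sp110 encode interferon-inducible readers of chromatin. In the chromosome 4 array, Zfp993 held 21 members with 20540 bp, Zfp982 held 15 with 15430 bp and Zfp980 held 9 with 12401 bp. Zfp992 was covered over 46.1% of its body and Rex2 over 12.9%. Some of these genes overlap each other, so their bases are partly shared. Sdk1, a long gene for a synaptic adhesion protein, held 13 members over 1.03% of its body. Member positions along 22 zinc finger genes with a known strand were divided over 3 equal parts of the body. Of 109 positions, 44 (40.4%) fell in the first part and 39 (35.8%) in the last, at the 3′ end. In 256 other protein-coding genes, 143 of 392 (36.5%) fell in the first part and 112 (28.6%) in the last. Outside the protein-coding genes, the immunoglobulin heavy chain locus Igh held 57 members with 70848 bp.

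Within the ground-state lists, members lay under peaks of varied height. The authors' maximum signal at a member stood at a median percentile of 69.5 and 71.9 within H1.0 replicates 1 and 2, and of 72.5 and 94.0 within H3K9me3 replicates 1 and 2. Intervals under both H1.0 lists without H3K9me3 stood at medians of 45.6 and 71.9 in the same H1.0 lists. Intervals under both H3K9me3 lists without H1.0 stood at 53.2 and 88.1 in the same H3K9me3 lists. The member that ranked highest in all 4 lists, chr5:71384204-71384492 between genes near Cox7b2, peaked at 38 and 384 in H1.0 and at 43 and 559 in H3K9me3. The next, chr7:12010333-12016906 near Vmn1r77, was 6574 bp long and peaked at 69 and 54 in H1.0 and at 36 and 157 in H3K9me3.

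The lists differ widely in length, which bears on every day 1 value. The day 1 H1.0 lists cover 34.6% of the genome in replicate 1 and 1.08% in replicate 2, and the ground-state H1.0 lists cover 3.53% and 42.1%. The day 1 H3K9me3 lists cover 4.14% and 13.8%, and the ground-state ones 2.50% and 11.96%. The MEF2C lists cover 0.510% to 3.41%. By the prefix in their names, the deposited lists fall into a first and a second naming series, and what the series stand for is not given in the sources used here. In each of the 4 pairs of H1.0 and H3K9me3 lists the longer list belongs to the second series.

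At day 1, H3K9me3 still lay over most members, and H1.0 lay over most of them in 1 list and few in the other. A library is said to hold a member when at least 50% of its bases lie under the library's peaks. Both day 1 H3K9me3 lists held 1683 members (75.2%), 3.69% of 500 bp genome tiles and 66.6% of ground-state H3K9me3 intervals without H1.0. Of the members, the rest divided as follows. Exactly 1 list held 514 and neither held 40 (1.79%). Both day 1 H1.0 lists held 277 members (12.4%), 0.73% of tiles and 5.12% of ground-state H1.0 intervals without H3K9me3. Exactly 1 list held 1287 members (57.5%) and neither held 673 (30.1%). All 4 day 1 lists held 210 members (9.39%), against 0.0435% of tiles.

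In bases, day 1 H3K9me3 covered 77.1% of member sequence in replicate 1 and 95.7% in replicate 2. It covered 67.8% and 97.8% of ground-state H3K9me3 sequence without H1.0. Members were thus the higher set in replicate 1 and the lower in replicate 2. Day 1 H1.0 covered 65.3% of member sequence in replicate 1 and 19.6% in replicate 2. It covered 71.6% and 6.36% of ground-state H1.0 sequence without H3K9me3, so members were lower in replicate 1 and higher in replicate 2, and no direction held over both libraries for either mark. With 2 libraries per mark no exact test can reach 0.05, and none was run. The replicate 2 values stood at 18.1 times the genome share of that list for members and 5.86 times for H1.0 sequence without H3K9me3.

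**Figure D2:**
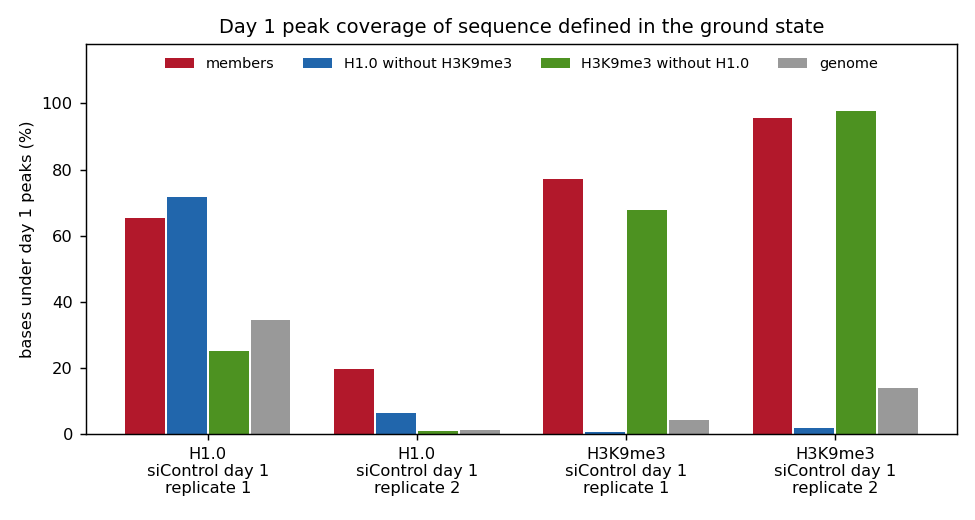
Percentage of bases under the peaks of each day 1 siControl library (H1.0 and H3K9me3, replicates 1 and 2) in the members, in the ground-state sequence of 1 mark without the other, and in the genome. H3K9me3 covers 77.1% and 95.7% of member bases, and H1.0 covers 65.3% and 19.6%.

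How far these shares differ from what a further ground-state library would give was read from intervals chosen by the other 3 lists. Where ground-state H1.0 replicate 1 was left out of the choice, the day 1 H1.0 list of the same naming series covered 3.88% of bases and the left-out ground-state list 9.37%. Where ground-state H1.0 replicate 2 was left out, the values were 55.3% at day 1 and 52.4% in the ground state. For H3K9me3 they were 45.2% at day 1 and 35.0% in the ground state in the first series, and 92.0% at day 1 and 94.6% in the ground state in the second. Divided by each list's genome share, day 1 H1.0 stood at 3.58 and 1.60 and ground-state H1.0 at 2.65 and 1.24 in the first and second series. Day 1 H3K9me3 stood at 10.9 and 6.67 and ground-state H3K9me3 at 14.0 and 7.91. Each value is 1 library, so none of these differences could be tested.

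The share of members held by both day 1 lists differed with their ground-state height. Members were ranked by the ground-state height of a mark, taking the lower percentile of its 2 lists, and divided into 3 equal bands. Both day 1 H1.0 lists held 24.9% of the highest band, 6.70% of the middle and 5.50% of the lowest. For H3K9me3 the shares were 89.8% of the highest, 77.5% of the middle and 58.4% of the lowest band. Both day 1 H1.0 lists held 19.1% of members of 1 kb or longer, 10.1% of those of 500 bp to under 1 kb and 8.23% of shorter ones. For H3K9me3 these shares were 78.5%, 75.6% and 69.8%, and in replicate 2 alone they were 95.6%, 95.8% and 96.8%, in the opposite order. Both H1.0 lists held 18.5% of members in the dense runs and 10.3% outside them. Both day 1 H1.0 lists held 12.5% of the 1683 members that both day 1 H3K9me3 lists held, close to the 12.1% of the other 554. Those 554 had not all lost H3K9me3: 1 of its day 1 lists still held 514, and neither held 40. At least 1 day 1 H1.0 list held 1158 of the 1683 and 406 of the 554.

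**Figure D3:**
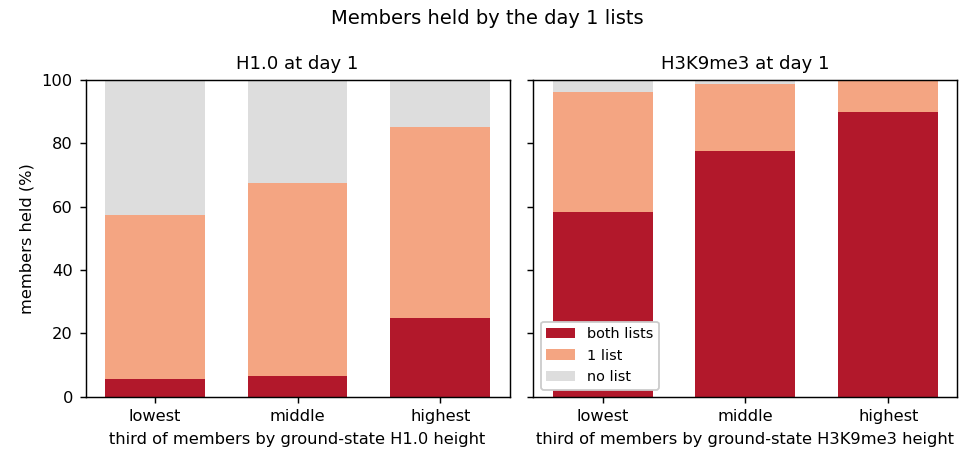
Percentage of members held by both, by 1 or by no day 1 list of H1.0 (left) and H3K9me3 (right), for 3 bands of the members ranked by the ground-state height of the same mark. The share held by both lists is 24.9% in the highest and 5.50% in the lowest band for H1.0, and 89.8% and 58.4% for H3K9me3.

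Single clusters differed in what they kept. In the zinc finger array of chromosome 4 (204 members), day 1 H3K9me3 covered 87.8% and 95.6% of member bases and day 1 H1.0 covered 69.5% and 19.7%. In the Sp100-family array (116 members) H3K9me3 covered 88.2% and 82.8% and H1.0 covered 68.3% and 43.4%. Within that array, H3K9me3 replicate 2 covered 0% of the member bases of C130026I21Rik, where replicate 1 covered 91.1%, and 54.3% of those of Gm38510, where replicate 1 covered 92.0%. Stretches lower in replicate 2 occurred in both arrays: in a run of 20 members of the chromosome 4 array (chr4:146925009-147142783) H3K9me3 covered 89.9% and 61.1%. The Igh variable-segment cluster (34 members) carried H1.0 over 92.8% and 45.2% of its bases and H3K9me3 over 57.3% and 100%. It had more H1.0 than the arrays in both lists and less H3K9me3 in replicate 1. The Cyp3a cluster (25 members) carried H1.0 over 65.5% and 10.0% and H3K9me3 over 96.0% and 100%. In Sdk1 (13 members) H1.0 covered 26.7% and 0% and H3K9me3 covered 85.2% and 100%.

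Among the few members in cell identity genes, the day 1 marks were mixed. Erg kept H1.0 over 90.1% and 93.6% of its member bases and H3K9me3 over 0% and 100%. Ddr2 had H1.0 over 100% and 0%, and H3K9me3 over 0% and 100%. In Slc8a1 H1.0 covered 0% in both lists and H3K9me3 covered 77.3% and 100%. The imprinted genes with a member were Plagl1, Hymai, Trappc9 and Peg13, or 4 of 69 (5.80%, against 1.25% of all genes). Plagl1 and Hymai share a member, as do Trappc9 and Peg13, so each pair rests on 1 site. Members covered 0.0519% of the summed length of imprinted genes, against 0.0818% for all genes. Erg was the only gene of these lists with a member whose bases kept most of their H1.0 in both libraries. Trappc9 and Peg13 share 1 member (chr15:72809915-72810728), where Trappc9 bases had H1.0 over 100% and 0% and H3K9me3 over 83.9% and 100%.

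MEF2C at day 1 covered a minority of member bases in every library. It covered 2.99%, 10.5% and 8.78% in siJunb replicates 1 to 3, 1.61%, 2.88% and 4.76% in siH1f0 replicates 1 to 3, and 1.70% and 7.47% in siControl replicates 1 and 2. The siJunb and siH1f0 libraries overlap both each other and siControl in this share. Divided by the genome share of each list, the values were 5.87, 3.56 and 3.90 under siJunb, 0.753, 0.843 and 5.56 under siH1f0, and 2.87 and 3.11 under siControl. By this ratio every siJunb library stood above both siControl libraries, while siH1f0 had 2 libraries below and 1 above them. The size of the ratio depended on the peaks used. With the upper part of each MEF2C list by maximum signal, the siControl ratios were 1.01 and 0.947. Ratios were then 2.25, 3.48 and 4.18 under siJunb and 0.554, 0.640 and 2.86 under siH1f0. With lists of equal covered length, they were 1.53 and 0.851 under siControl. They were then 5.87, 1.83 and 2.52 under siJunb and 0.403, 0.670 and 3.36 under siH1f0.

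Differences between groups were tested over libraries with exact permutation tests, two-sided, with Benjamini-Hochberg adjustment over the 6 tests. The ratio averaged 4.44 ± 1.25 under siJunb and 2.99 ± 0.168 under siControl (SD, n = 3 and 2), a difference of 1.45 with an exact p of 0.2, the smallest that 3 against 2 libraries allow. The ratio averaged 2.39 ± 2.75 under siH1f0 (SD, n = 3), 0.603 below siControl (exact permutation p = 1) and 2.06 below siJunb (exact permutation p = 0.3, smallest possible 0.1). The share averaged 7.41% ± 3.92 under siJunb, 3.09% ± 1.58 under siH1f0 and 4.58% ± 4.08 under siControl (SD, n = 3, 3 and 2). For the share, exact permutation p-values were 0.4 for siJunb against siControl, 0.6 for siH1f0 against siControl and 0.2 for siH1f0 against siJunb. Adjusted exact p-values ran from 0.6 to 1. These designs cannot reach 0.05, so the tests do not settle whether the groups differ. The siJunb and siControl ratios did not overlap, while the libraries overlapped in the other comparisons. Both knockdowns were set against the same 2 siControl libraries.

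The naming series moved with these values, and its part in them was not tested. Within the first series, the share was 2.99% under siJunb, 4.76% under siH1f0 and 1.70% under siControl, 1 library each. Within the second it averaged 9.62% under siJunb and 2.25% under siH1f0, against 7.47% in the single siControl library. The siH1f0 difference from siControl in the share was therefore 3.07 percentage points in the first series and -5.23 in the second. The siJunb difference was 1.30 and 2.15 points. Without siControl replicate 1 the siJunb difference in the share was -0.0570 points, and without siControl replicate 2 the siH1f0 difference was 1.39 points.

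**Figure D4:**
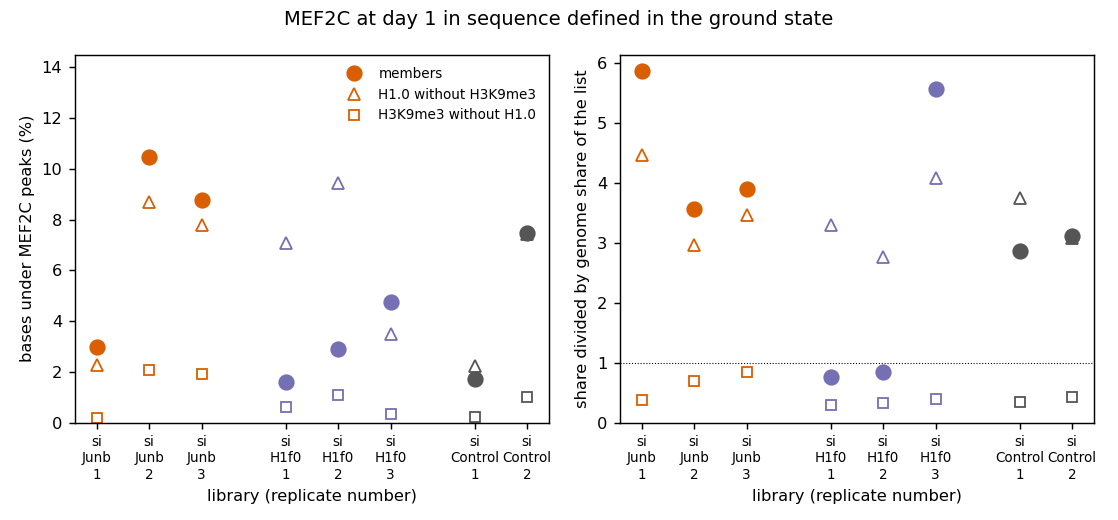
Percentage of bases under MEF2C peaks (left) and the same share divided by the genome share of each list (right), 1 column per library; filled circles are members, open triangles H1.0 sequence without H3K9me3 and open squares H3K9me3 sequence without H1.0. Members reach 10.5% in siJunb replicate 2, and in siH1f0 replicates 1 and 2 their ratio (0.753 and 0.843) falls below the dotted line at 1.

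Set beside sequence with 1 mark only, members lay nearer to the H1.0 set in 6 of the 8 libraries. MEF2C stood at 2.77 to 4.46 times its genome share in H1.0 sequence without H3K9me3 over the 8 libraries, and at 0.285 to 0.845 times in H3K9me3 sequence without H1.0. In siH1f0 replicates 1 and 2 it stood at 3.30 and 2.77 in H1.0 sequence without H3K9me3 and at 0.285 and 0.321 in H3K9me3 sequence without H1.0, with the members at 0.753 and 0.843 in between. The members stood above the H1.0 set in siJunb replicates 1 to 3 (5.87, 3.56 and 3.90, against 4.46, 2.96 and 3.46), in siH1f0 replicate 3 (5.56 against 4.08) and by little in siControl replicate 2 (3.11 against 3.08). They stood below it in siControl replicate 1 (2.87 against 3.75). No test was made of these differences between sets within a library.

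In the dense runs of members, MEF2C covered 2.55%, 8.62% and 8.02% of member bases under siJunb, 0%, 0.451% and 1.86% under siH1f0, and 0.648% and 7.85% under siControl. The 3 siJunb libraries lay above the 3 siH1f0 libraries, and siControl overlapped both. Divided by genome share, the values in the runs were 4.99, 2.93 and 3.56 under siJunb, 0, 0.132 and 2.17 under siH1f0, and 1.10 and 3.27 under siControl. By this ratio siH1f0 replicate 3 stood between the siControl libraries. Outside the runs the values were 3.21%, 11.3% and 9.15% under siJunb, 2.38%, 4.04% and 6.15% under siH1f0, and 2.20% and 7.29% under siControl. In siH1f0 replicate 1 MEF2C covered 0% in each of the 14 clusters. In the Sp100-family array it covered 4.70%, 15.6% and 14.0% under siJunb, 0%, 1.54% and 3.31% under siH1f0, and 0.486% and 13.9% under siControl. In the chromosome 4 array it covered 2.20%, 6.93% and 8.05% under siJunb, 0%, 0% and 1.53% under siH1f0, and 0.802% and 4.88% under siControl. The Igh cluster had 0% in all 8 libraries.

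**Figure D5:**
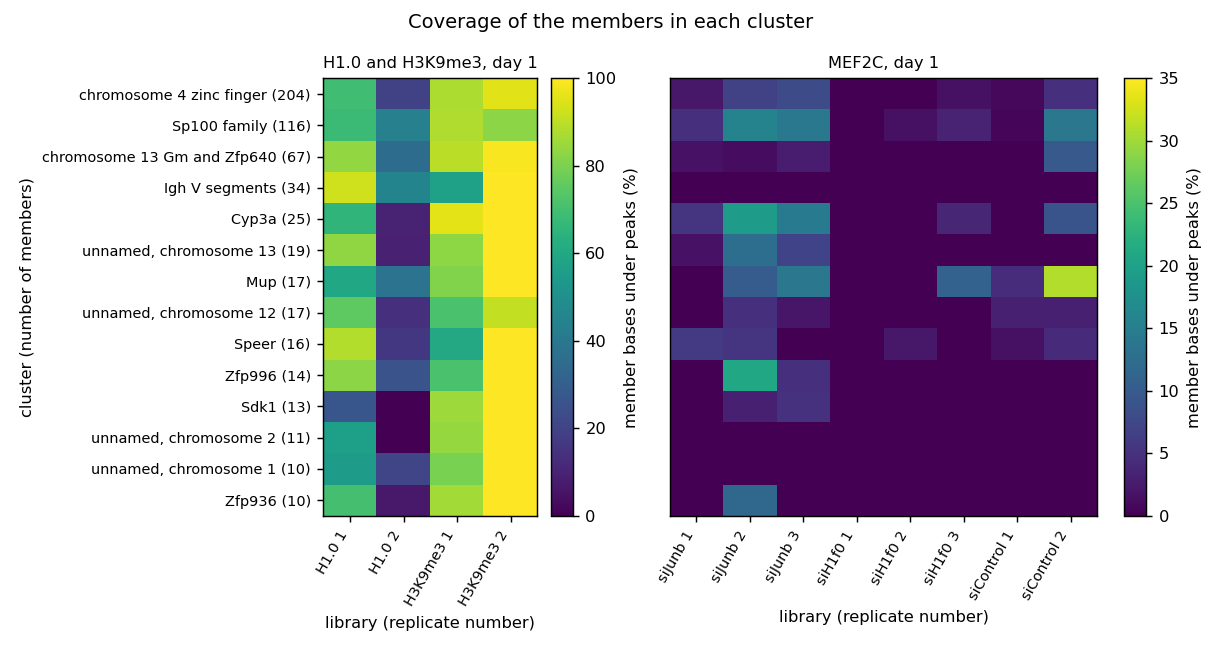
Percentage of member bases under peaks in each of the 14 clusters (rows, with the number of members) for the day 1 siControl libraries of H1.0 and H3K9me3 (left) and the 8 MEF2C libraries (right). The column of siH1f0 replicate 1 is at 0% in every cluster, and the Igh row is at 0% in all 8 MEF2C columns.

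In most libraries MEF2C covered more of the member bases where both day 1 H1.0 lists held the member. At the 277 members held by both day 1 H1.0 lists it covered 8.21%, 19.8% and 19.5% of bases under siJunb, 1.15%, 1.56% and 11.7% under siH1f0, and 4.29% and 12.3% under siControl. At the 673 members held by neither it covered 1.41%, 5.95% and 3.37% under siJunb, 1.43%, 3.28% and 2.11% under siH1f0, and 1.17% and 4.23% under siControl. In bases, MEF2C was thus higher where H1.0 was kept in 6 of 8 libraries and lower in siH1f0 replicates 1 and 2. Counted by members held, it was higher where H1.0 was kept in every library. There siH1f0 replicate 1 held 6 of 277 members (2.17%) and 8 of 673 (1.19%). Its replicate 2 held 9 (3.25%) and 21 (3.12%), so the order in these 2 libraries depends on the measure. Members of 1 kb or longer, which both day 1 H1.0 lists held more often, also differed in MEF2C from those under 500 bp. Under siControl it covered 2.33% and 9.66% of the longer and 1.63% and 4.72% of the shorter. In siH1f0 replicates 1 and 2 the order was the opposite, with 1.35% and 2.55% against 2.00% and 4.06%. The part of length was not tested. By the day 1 fate of H3K9me3 the order varied between libraries. Where both day 1 lists held the member, MEF2C covered 3.01%, 10.4% and 9.71% under siJunb, 1.35%, 2.18% and 4.80% under siH1f0, and 1.62% and 8.05% under siControl. At the other members it covered 2.94%, 10.6% and 5.59% under siJunb, 2.52%, 5.27% and 4.62% under siH1f0, and 1.95% and 5.49% under siControl.

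Counted by member, MEF2C was found in at least 1 of 8 libraries at 475 members (21.2%, against 7.28% of tiles). It was found in 4 or more at 39 (1.74%), a count with no share of tiles to set beside it. Of these 39, 1 lay in a dense run, as did 25.6% of all members. It was found in all 8 at 2 members (0.0894%, against 0.14% of tiles). The first lies in Plekha6, which encodes a pleckstrin-domain protein (chr1:133188711-133189639). There MEF2C covered 76.7%, 82.5% and 64.6% under siJunb, 100%, 100% and 87.0% under siH1f0, and 83.6% and 87.0% under siControl, and neither day 1 H3K9me3 list covered any base. The second lies in the noncoding gene Gm39928 (chr2:128543927-128544656), where H3K9me3 at day 1 covered 99.9% and 100%. Where MEF2C lay on members its peaks were not the tallest, with median percentiles within the lists of 23.6, 48.9 and 54.9 under siJunb, 46.8, 50.2 and 29.5 under siH1f0, and 19.6 and 14.7 under siControl.

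A member was gained under siJunb where all 3 siJunb libraries and no siControl library held it. By this rule 6 members (0.268%) were gained, against 0.00925% of tiles and 0.0509% of ground-state H1.0 intervals without H3K9me3. The longest, chr1:85620486-85622421 in Sp140, had MEF2C over 80.8%, 61.4% and 88.7% under siJunb and 0% in all siH1f0 and siControl libraries. Asmt, the last enzyme of melatonin synthesis on chromosome X, had 100%, 99.6% and 95.6% under siJunb, 0%, 0% and 100% under siH1f0, and 0% and 0% under siControl. E330021D16Rik had 85.6%, 100% and 97.6% under siJunb and 0% in the other 5. The others lay near Trim52, Vmn1r2 and Gm46305. Under siJunb 4 members (0.179%) were lost, against 0.0836% of tiles and 0.223% of ground-state H1.0 intervals without H3K9me3. Mtor, the kinase of growth control, held 1 of these members, and the others lay near Mup17, Gm2001 and Ctnnd1.

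Under siH1f0, 0 members were gained, against 0.0364% of tiles and 0.145% of ground-state H1.0 intervals without H3K9me3. Members lost numbered 5 (0.224%), against 0.00942% of tiles and 0.0274% of those intervals. Psen2, which encodes a subunit of gamma-secretase, held the longest, chr1:180242155-180243670. It had MEF2C over 0%, 0% and 0% under siH1f0 and 84.0% and 78.1% under siControl, and over 0%, 100% and 83.2% under siJunb. The members near Mup17 (chr4:61566949-61568418) and Gm2001 (chr12:87855650-87856875) were lost under both knockdowns, which share their controls. For siH1f0 set against siJunb, 1 member (0.0447%), near Slc24a3, was gained, against 0.0811% of tiles and 0.294% of those intervals. In this comparison 5 members were lost (0.224%), against 0.00378% of tiles and 0.0157% of those intervals. These 5 were the siJunb gains without Asmt and rest on the same siJunb libraries. Counts this small rest on single libraries: without siJunb replicate 1 the gains under siJunb numbered 42, and without siControl replicate 1 the losses numbered 64 under siJunb and 74 under siH1f0. Without siH1f0 replicate 3, 6 members were gained under siH1f0.

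The gene values show the same spread. In Sp140, MEF2C covered 18.4%, 20.0% and 18.97% of member bases under siJunb, 0%, 16.4% and 11.3% under siH1f0, and 5.20% and 46.6% under siControl. In Zfp982 it covered 4.98%, 17.9% and 15.7% under siJunb, 0% in all 3 siH1f0 libraries, and 6.37% and 13.5% under siControl. At the Plagl1 start it covered the gene's member bases wholly (100%) in siH1f0 replicates 1 and 2 and in siControl replicate 2, and not at all in the other 5 libraries, siJunb included. These 3 libraries all belong to the second series. The Erg member had MEF2C over 0%, 100% and 0% under siJunb, 0%, 0% and 78.8% under siH1f0, and 0% in both siControl libraries.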

How the data were processed

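The 16 peak lists used here came from CUT&RUN libraries, 1 list per sample, on mm10. The 8 IgG samples were not analysed here. Per the submitters' processing notes, the authors used Bowtie2 and SEACR, of versions not given here, and the list names carry SEACR's relaxed setting. The deposited values are signal, that is the read coverage added up along a peak and its highest value, and were used only to rank or filter peaks within a list. No values were compared in height between lists. The labels give 30 M reads per sample, the number aligned is not given in the sources used here, and the depth behind a peak is thus unknown. Regions known to attract excess reads were not removed.

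Lists were merged per library and intersected with Python 3.11.15, numpy 2.4.6 and pandas 2.3.3, and the interval functions were tested on simulated data. Members are intersected intervals of at least 200 bp. Comparison sequence lay under both ground-state lists of 1 mark and neither of the other. The genome span was 2632 Mb, to the last base that any list or gene names, in tiles of 500 bp. Gene positions and promoters came from RefSeq tables of GRCm38.p6. Promoter windows were aligned with match 1, mismatch -1, gap -2 per base and free ends. GC and repeat content of all members, planned as a description, was left out because no genome sequence was used. Named by rule were the 10 longest members, the 10 highest in all 4 lists, those held for MEF2C in all 8 libraries, gained, lost, or held by all day 1 lists, the 15 protein-coding genes with most member bases, the 10 with the largest covered share, and up to 5 genes per list. Igh, the promoters, the runs and clusters and the bands of height were chosen after their values were seen. The members and lists were chosen with earlier results of these data known.

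Shares were tested with exact permutation tests over libraries (scipy 1.17.1 checked the enumeration). The labels speak of biological replicates but do not say what was repeated. The p-values therefore cover the spread between samples, part of which may be technical. Alternatives varied the members, the peak threshold, list length, overlap and libraries. Figures were drawn with matplotlib 3.10.9.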

Additional observations from a re-analysis of the deposited data

Results flagged for a closer look

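The rule kept to chromosomes 1 to 19 and X, and sequence outside them was used in no comparison. There, the same 4 ground-state lists also met on unplaced and unlocalised scaffolds, in 112 intervals over 160 kb on 11 of 37 scaffolds. On chromosome Y they met in 2 intervals over 2.07 kb. No control library was analysed here that would give a background for these intervals, and multicopy sequence is common in both places, so which copy the reads came from is uncertain.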

How the results depend on the processing

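Of 188 values under other settings, 141 were classed as the same, 33 as moved and 14 as reversed. The same meant a kept direction or, for counts, a change too small to be classed as moved. Such changes could be large: counting any shared base as held took members held by both day 1 H1.0 lists from 277 to 411. It took gains under siJunb from 6 to 9. A kept direction was not always a kept size: without ground-state H3K9me3 replicate 1 in the rule, the siH1f0 difference from siControl in the MEF2C share became -0.0416 points, and without H1.0 replicate 1 the day 1 H3K9me3 difference named below became 0.164 points. The group sizes did not allow a test to pass 0.05 under any setting. The siH1f0 difference from siControl in the MEF2C share (-1.50 points) became 0.284 with the upper part of each MEF2C list and 0.148 with lists of equal covered length. Its difference in the ratio (-0.60) became 0.374 and 0.291 under these settings, and 0.0591 without ground-state H3K9me3 replicate 1 in the rule. The day 1 H1.0 share of members minus that of H1.0 sequence without H3K9me3 (3.53 points) became -14.2 without ground-state H1.0 replicate 1 and -4.38 without replicate 2 in the rule. For H3K9me3 (3.58 points) it became -20.5 without ground-state H3K9me3 replicate 1. Under these rules the members needed only 1 ground-state list of the mark, while the comparison sequence still needed both. These differences therefore set unlike sets side by side and cannot be read as a change in the members themselves. Rules of 3 lists also choose more members. Members held by both day 1 H1.0 lists then numbered 720 without H3K9me3 replicate 1. Those held by both day 1 H3K9me3 lists numbered 10195 and 2935 without H1.0 replicates 1 and 2, and 2636 without H3K9me3 replicate 1. Genes with a member numbered 2855, 1023 and 1651 under these 3 rules, 987 within 5 kb and 136 with at least 10% of the body covered. Counting any shared base as held gave 0 gained and 8 lost for siH1f0 against siJunb. The cause of these changes was not tested, apart from the larger number of members.

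Leaving out 1 library at a time gave ranges of -0.0570 to 5.72 points (siJunb against siControl), -4.39 to 1.39 (siH1f0 against siControl) and -6.54 to -2.80 (siH1f0 against siJunb) for the share, and of 0.740 to 1.89, -2.19 to 0.214 and -3.64 to -1.24 for the ratio. Members gained and lost ranged from 6 to 42 and 5 to 64 for siJunb, 0 to 6 and 5 to 74 for siH1f0, and 1 to 5 and 5 to 43 for siH1f0 against siJunb. Day 1 counts ranged from 360 to 1481 for H1.0 and 1733 to 2147 for H3K9me3, and the day 1 differences from -6.23 to 13.3 and -2.09 to 9.25 points. With a replicate block, over the numbers both groups have, the differences in the ratio were 1.72, -2.19 and -2.06 and in the share 2.15, -2.34 and -4.33 points. Same-numbered siH1f0 and siJunb libraries did not deviate together (correlations over 382965 tiles of -0.083, -0.083 and -0.001), so the numbers were not read as pairs.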
